A study of Arabidopsis thaliana with 3 samples.

Results

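SIM and SMR2 belong to the SIAMESE family, small plant proteins that inhibit cyclin-dependent kinases, and their signal was examined in the quiescent center (QC) of the Arabidopsis root. They were chosen by name, with earlier results of these data known. Each was measured by 1 probe set, so the pair accounts for 2 of the 13355 genes that could be named on the array. SIM is the locus AT5G04470. SMR2 was taken to be the locus AT1G08180, for which the annotation tables used here give only the locus, so the name rests on general knowledge of the family. GFP-positive protoplasts were sorted from Col-0 roots carrying WOX5:GFP, a reporter that is active in the QC, at 5 days after stratification. Each of the 3 QC samples was hybridised to 1 ATH1 array. There was no other genotype, treatment or cell type, so neither gene can be called higher or lower in the QC than elsewhere. Whether the samples were separate plants or sorts is not stated, so the p-values may reflect technical spread alone.

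SIAMESE proteins bind cyclin-dependent kinases and their cyclins and hold the kinase inactive, which blocks entry into mitosis. SIM is named after its mutant, in which leaf hairs divide into several cells instead of staying single cells that replicate their DNA without dividing. The family is known for its part in the switch from division to such endoreplication, and some members are induced by DNA damage. The QC divides rarely and keeps the surrounding stem cells undifferentiated, with low division credited to control of D-type cyclins and of the anaphase-promoting complex.

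SIM gave almost the same signal on all QC arrays. Its MAS5 signal, a linear brightness scaled to a common mean on each array, was 269.3 on replicate 1, 257.4 on replicate 2 and 288.5 on replicate 3. The highest array thus exceeded the lowest by 1.12-fold, and the mean was 271.8 ± 15.7 (SD, n = 3). On the log2 scale the SD between arrays was 0.08, and 8.02% of the 1334 other genes in the same decile of mean signal had a smaller SD, where the median was 0.24. SIM also kept its place on each array, at percentile 78.5, 77.4 and 79.3 of the tested genes. Percentiles show here that 1 probe set held its place across arrays. They do not order transcripts by abundance, since probes differ in how well they bind.

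SMR2 gave a low signal that varied between arrays. It measured 27.2 on replicate 1, 58.2 on replicate 2 and 35.7 on replicate 3, with a mean of 40.4 ± 15.98 (SD, n = 3). Replicate 2 was the highest and exceeded replicate 1 by 2.14-fold. The SD of its log2 signal was 0.55, and 62.4% of the 1334 other genes in its decile of mean signal had a smaller SD, with a median of 0.45. Its place moved from percentile 37.9 on replicate 1 to 48.6 on replicate 2 and 40.9 on replicate 3. Over all genes 56.7% lay within 2-fold on all arrays, which held for SIM and not for SMR2.

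**Figure D1:**
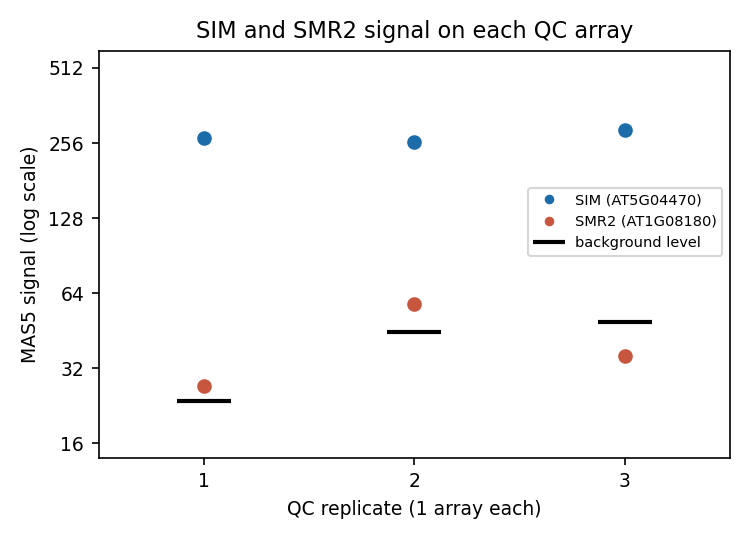
MAS5 signal (vertical, log scale) of SIM and SMR2 on each QC replicate (horizontal, 1 array each), with the background level of each array as a black bar. SIM sits between 257.4 and 288.5 on every array, while SMR2 sits between 27.2 and 58.2, near the bars.

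**Figure D2:**
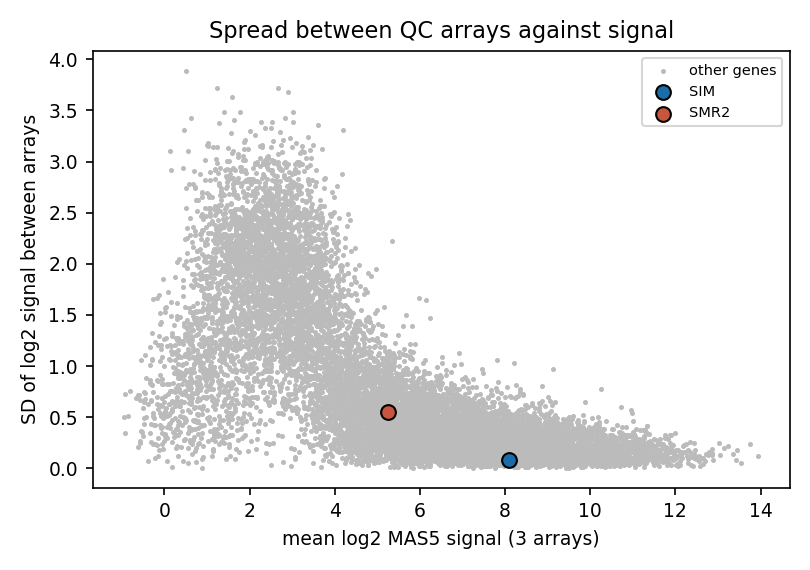
SD of log2 signal between the 3 QC arrays (vertical) against mean log2 signal (horizontal), 1 point per tested gene. SIM, at an SD of 0.08, lies near the lower edge of genes with like signal, and SMR2, at 0.55, lies among the bulk of genes with like signal.

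The next question was whether either signal exceeded that of genes known from other organs. As background served the 90th percentile of log2 signal over 6 flower and pollen genes on each array, which stood at a signal of 23.6, 44.9 and 49.0 on replicates 1 to 3. SIM exceeded it 11.4-fold on replicate 1, 5.74-fold on replicate 2 and 5.89-fold on replicate 3. SIM was also above all 6 panel genes on every array. Its mean of 2.86 ± 0.56 log2 over background (SD, n = 3) passed the test (limma adjusted p = 3.53e-13). Of the 13349 genes tested 45.3% were called above, 25.6% were called below and 29.1% were not called. The ± value came mainly from the level, which was lowest on replicate 1, and not from SIM itself.

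SMR2 lay near the background level. It was 1.16-fold and 1.30-fold above the level on replicates 1 and 2 and at 0.73-fold of it on replicate 3, so the arrays fell on both sides. On each array SMR2 was above 5 of the 6 panel genes, the exception being AMS, a regulator of the tapetum in the anther. Its mean of 0.04 ± 0.44 log2 over background (SD, n = 3) did not pass (limma adjusted p = 0.952). The 95% interval was built on the usual spread of genes with like mean signal, not on the SD of SMR2 itself. It ran from -1.13 to 1.22 log2, which covers signals from 0.46-fold to 2.33-fold of the level. The level leaned on AMS, which gave 5.60, 5.90 and 6.64 log2 on replicates 1 to 3. The medians over all genes tested were 5.81, 5.97 and 5.92. Without AMS the genes called below fell from 3414 to 1560. In that setting SMR2 lay at 1.00 log2, still not called (limma adjusted p = 0.226), and SIM at 3.82. SMR2 was therefore not detectable at this background, which does not show that its transcript is absent.

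These calls followed the mean signal closely. In the decile of mean signal that held SIM 100% of the other genes were called above, and in that of SMR2 100% were not called. The fit took each gene's spread wholly from the trend with mean signal, so a very small p says only that SIM lay far from the level compared with the usual spread of such genes. With each gene's own spread over background the call of SIM ended (limma fit without moderation, adjusted p = 0.0509). For SIM that spread was 0.56 log2 and includes the deviations of the level, while its own signal had an SD of 0.08. In the same fit the count of genes above fell from 6050 to 2715. With bacterial control probe sets as background SMR2 was called above, at 1.04 log2 (limma adjusted p = 0.0375).

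**Figure D3:**
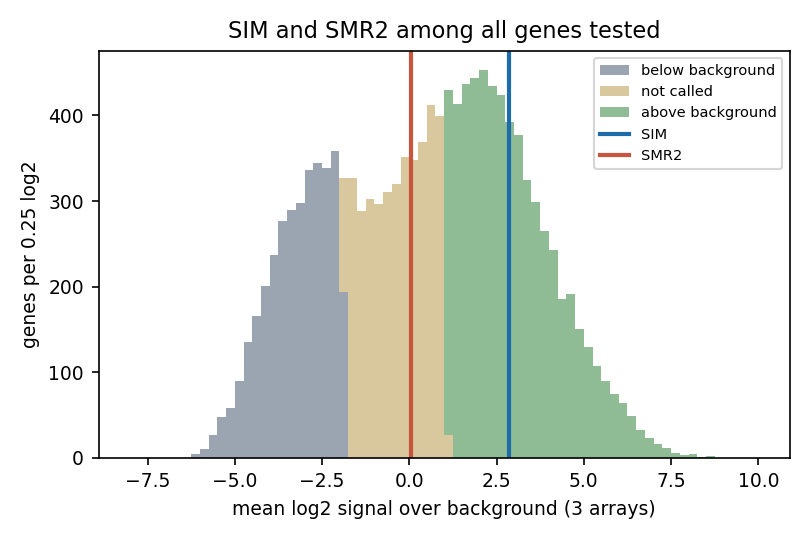
Number of genes (vertical, per 0.25 log2) by mean log2 signal over background (horizontal, 3 QC arrays), coloured by call. The line for SIM, at 2.86, falls among genes called above, and the line for SMR2, at 0.04, among those not called.

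Other loci of the SIAMESE family were examined in the same way. Of 14 listed loci 9 were measured, of which SIM alone carries a family name in the tables and the other 8 were placed in the family from general knowledge by locus. Above background lay 4 of the 9, none lay below and 5 were not called, and the median was 0.04 log2 against 0.62 over all genes tested. At 45.3% over all genes, this count does not set the family apart. The 5 loci not measured include LGO, a relative known from giant cells of the sepal epidermis, and SMR4, SMR5 and SMR7, and are not analysed here.

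Besides SIM the loci above background were AT5G02420, AT2G28870 and AT5G40460. AT5G02420 had signals of 447.7, 332.1 and 428.1 on replicates 1 to 3 and exceeded the level by 3.42 ± 0.73 log2 (limma adjusted p = 2.97e-18). Its call ended without moderation (limma fit without moderation, adjusted p = 0.0532). AT2G28870 measured 142.2, 240.3 and 250.3 and lay at 2.46 ± 0.12 (limma adjusted p = 1.2e-09). AT5G40460 measured 96.4, 147.6 and 209.5 and lay at 1.95 ± 0.20 (limma adjusted p = 6.01e-06). All 4 family loci called above were over the level on each array. The signals of AT2G28870 and AT5G40460 were lowest on replicate 1, as the level was, so their ± values understate the spread of their own signals, 0.45 and 0.56 log2.

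The remaining loci were not called. AT2G28330 lay at 0.04 ± 0.95 and AT1G10690 at -0.04 ± 1.05 log2 (SD, n = 3), both with arrays on either side of the level. AT5G59360 lay at -1.54 ± 0.61 (limma adjusted p = 0.0874), under the level on all arrays with signals of 5.18, 16.3 and 24.8, and it was called below in 4 of 17 alternatives. AT2G37610 lay at -1.67 ± 3.16 (limma adjusted p = 0.0697), and this mean rested on replicate 2, where its signal was 1.14 against 33.0 and 42.7 on replicates 1 and 3. Without replicate 2 it lay at 0.14, and without replicate 1 it was called below at -2.75 (limma adjusted p = 0.0440). SIM had the smallest array-to-array fold of the family, and 4 of the 9 loci stayed within 2-fold across arrays.

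**Figure D4:**
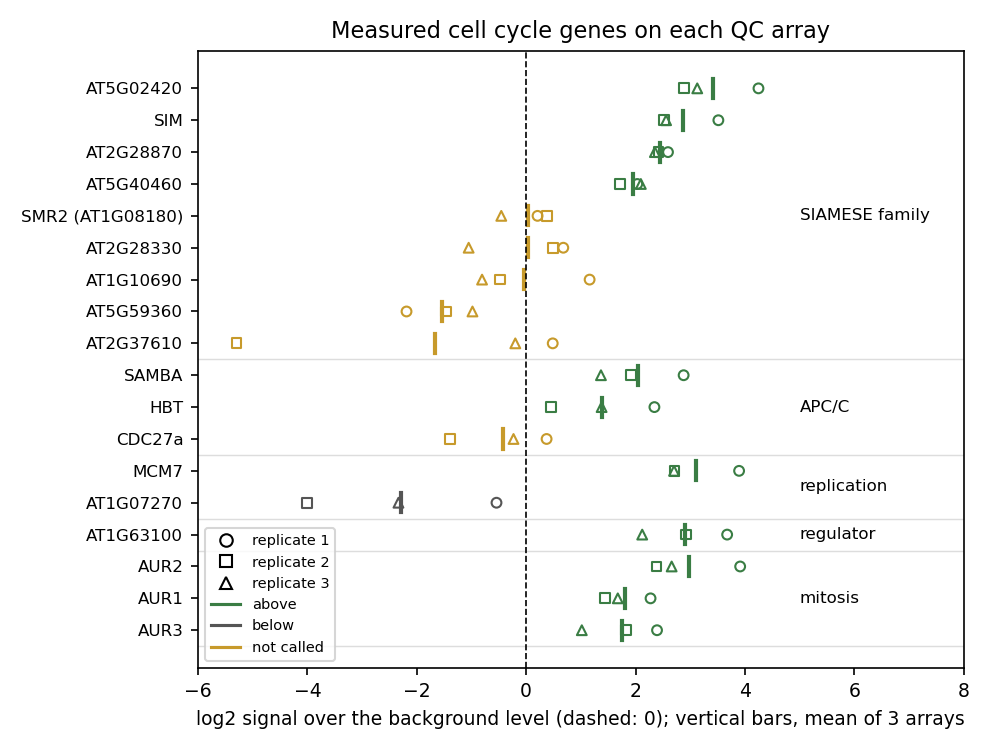
Log2 signal over the background level (horizontal) of the measured loci of the SIAMESE family and of other cell cycle lists (vertical), with 1 open symbol per replicate and a vertical bar at the mean, coloured by call. The 4 family loci called above, SIM among them, have every array to the right of 0, and the arrays of SMR2 lie on both sides of it.

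The kinases and cyclins that SIAMESE proteins act on could not be set beside them. The lists of KRP inhibitors (7 genes), cyclin-dependent kinases with their CKS subunits (14), D-type cyclins (10), A- and B-type cyclins (20) and RBR and E2F genes (9) are not analysed here. Of the 129 genes on all cell cycle lists 18 were measured, of which 11 lay above background, 1 below and 6 were not called, with a median of 1.77 log2. Over all genes tested 45.3% lay above, 25.6% below and 29.1% were not called, with a median of 0.62. Outside the SIAMESE family the counts were 7, 1 and 1 of 9, to be read against the same shares.

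Of 15 listed genes of the anaphase-promoting complex, which destroys mitotic cyclins, and of entry into endoreplication 3 were measured. HBT and SAMBA lay above background and CDC27a was not called, where 45.3% of all genes tested were called above. HBT, a core subunit, measured 119.8, 61.6 and 127.4 and exceeded the level by 1.39 ± 0.94 log2 (limma adjusted p = 0.00347). That call ended without replicate 3 (limma adjusted p = 0.0697) and with the level raised by 1 log2 (limma adjusted p = 0.424). It also ended without moderation (limma fit without moderation, adjusted p = 0.186). SAMBA, a plant-specific regulator of the complex, lay at 2.05 ± 0.77, and CDC27a, a second form of the HBT subunit, at -0.42 ± 0.90. MCM7, a subunit of the replicative helicase, had signals of 350.2, 293.6 and 319.1 and lay at 3.10 ± 0.68. Without moderation the calls of SAMBA and MCM7 ended (limma fit without moderation, adjusted p = 0.0935 and 0.0547). AT1G07270, listed with the licensing genes, was called below at -2.29 ± 1.73 (limma adjusted p = 0.0220), a call lost in 6 of 16 alternatives, among them without replicate 2 or replicate 3 (limma adjusted p = 0.251 and 0.0769) and without AMS in the panel (limma adjusted p = 0.223).

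Of 14 listed regulators of SIAMESE-family genes the single one measured was AT1G63100, at 301.0, 339.0 and 213.1 on replicates 1 to 3 and 2.90 ± 0.78 log2 over background (limma adjusted p = 1.53e-13). GL1 and GL3, which act upstream of SIM in leaf hairs, and SOG1, which relays DNA damage, were not analysed here. Of 7 listed mitosis genes the 3 measured were the Aurora kinases AUR1 (1.80 ± 0.43), AUR2 (2.99 ± 0.81) and AUR3 (1.75 ± 0.69). All 3 lay above background on every array, and 45.3% of all genes tested were called above. The call of AUR3 ended without replicate 2 (limma adjusted p = 0.0511). Without moderation the calls of AT1G63100, AUR1, AUR2 and AUR3 all ended (limma fit without moderation, adjusted p = 0.0646, 0.0577, 0.0658 and 0.101). With the level raised by 1 log2 the calls of AUR1 and AUR3 ended (limma adjusted p = 0.0740 and 0.0988). Signals over the background level for a kinase inhibitor and for mitotic genes were therefore found in the same samples. As RNA was pooled from many cells, it cannot be told from these arrays whether the same cells gave both.

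Genes with signals most like those of SIM and SMR2 were then sought. Likeness was the root mean square distance of log2 signal over the 3 arrays. Nearest to SIM were AT5G14610 (0.02 log2), AT4G20480 (0.03) and AT4G31790 (0.04), with 270.9, 261.0 and 293.9 on replicates 1 to 3 for the first of them. Nearest to SMR2 were AT1G34340 (0.03), AT1G27820 (0.04) and AT4G21620 (0.08), of which AT1G34340 measured 26.8, 58.9 and 34.9 and was likewise highest on replicate 2. Such likeness was common, with 1349 of 13348 genes within 0.5 log2 of SIM and 476 within 0.5 log2 of SMR2, and over 3 arrays of 1 cell type it carries little.

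Markers of the QC and of other root cell types were examined next. All 3 measured QC markers lay above background, BBM at 3.77 ± 0.38, JKD at 1.57 ± 0.64 and AGL42 at 1.14 ± 0.27 log2 (SD, n = 3), while WOX5 was not analysed here. Of all genes tested 45.3% were called above. AGL42 lost its call in 6 of 17 alternatives, among them without replicate 2 or replicate 3 (limma adjusted p = 0.218 and 0.111), and JKD in 2, among them with the level raised by 1 log2 (limma adjusted p = 0.226). Of 20 listed markers of other root cell types 10 were measured and 7 lay above background, against the same 45.3% of all genes, with a summed signal of 2122 on replicate 1, 2009 on replicate 2 and 2217 on replicate 3. They were the root hair expansins EXPA18 (3.59 ± 0.72) and EXPA7 (2.65 ± 0.40), the endodermal receptor kinase GSO1 (3.42 ± 0.63), the vascular genes LHW (3.61 ± 0.50), OPS (2.09 ± 0.48) and PHV (1.36 ± 0.61), and ACR4 of the root cap (1.91 ± 0.83). PHV lost its call in 3, among them without replicate 2 (limma adjusted p = 0.101) and with the raised level (limma adjusted p = 0.470). EXPA18, OPS and ACR4 lost theirs without moderation (limma fit without moderation, adjusted p = 0.0512, 0.0563 and 0.113). The median over background was 1.57 log2 for the measured QC markers and 2.00 for those of other cell types. As these medians come from different probe sets, they do not rank the cell types. With 7 of those 10 other markers called too, calls above background cannot tell QC cells from other root cells here.

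ATMYC1 of the hairless epidermis (0.49 ± 0.98), the cortex locus AT1G62500 (0.77 ± 0.78) and CLE40 of the root cap (0.08 ± 1.34) were not called. Of the 17 alternatives, however, ATMYC1 was called above in 2, AT1G62500 in 5 and CLE40 in 1. The part of these cell types in the signal of SIM was not tested, and in such bulk samples fewer cells of a type and less RNA per cell cannot be told apart. Of 5 listed housekeeping genes 4 were measured, and all 4 lay above background, against 45.3% of all genes tested. They were GAPC2 at 6.71 ± 0.51, AT4G34270 at 3.30 ± 0.64, AT2G28390 at 3.27 ± 0.86 and UBC21 at 2.73 ± 0.80. Without moderation the calls of AT4G34270, AT2G28390 and UBC21 ended (limma fit without moderation, adjusted p = 0.0505, 0.0634 and 0.0712).

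**Figure D5:**
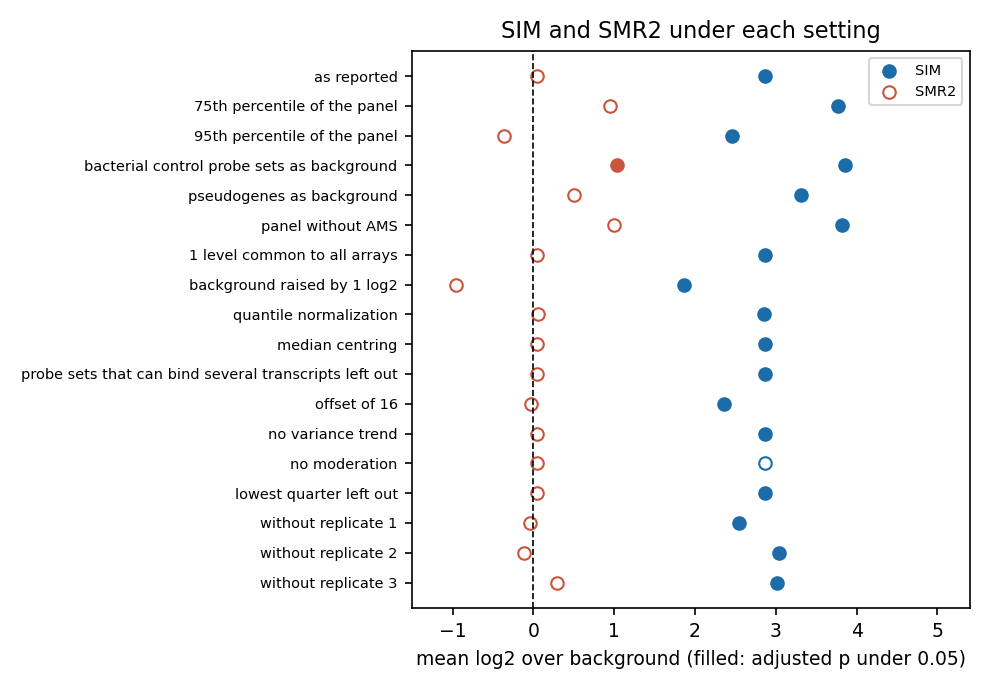
Mean log2 signal over background (horizontal) of SIM and SMR2 under the reported setting and each of 17 alternatives (vertical), with filled points where the limma adjusted p was under 0.05. SIM stays above 0 throughout, from 1.86 to 3.86, and is open only without moderation. SMR2 runs from -0.96 to 1.04 and is filled only with bacterial control probe sets as background.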

How the data were processed

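The deposited values were MAS5 signals, a linear intensity per probe set that the authors made on each single-colour array and scaled to a mean of 250 after trimming 2% at each end. The version of MAS5 was not given in the sources used here. Scaling hides any change in total RNA. Of 22810 probe sets 13513 named 1 gene, 503 several, 8730 none and 64 were controls. Genes were named by the platform annotation with RefSeq symbols (TAIR10.1, no coordinates used, 13436 matched). After log2 conversion without offset, probe sets of a gene were averaged (SIM and SMR2 have 1 each), and each pair of arrays shared 0 identical values.

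The background level was the 90th percentile over ANX1, ANX2, MGH3, AMS, CLV3 and AT5G07230, the measured genes of a larger panel used earlier, which were not tested. Differences from it were tested against 0 with limma 3.58.1 in R 4.3.3 (intercept model, eBayes with trend, two-sided, Benjamini-Hochberg over 13349 genes, adjusted p under 0.05). The prior degrees of freedom came out infinite. All genes share the deviations of the level, and the p-values leave out any error of it that the arrays have in common. The number of arrays limits the precision. The fit was tested on simulated data with independent noise for each gene. Such data hold no shared deviations of the level, so their effect on the p-values was not tested.

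The members, lists and background panel were chosen with earlier results of these data known. Named genes were the members, the measured genes of the lists and the 3 genes nearest to each member. Alternatives were other background levels, normalizations, probe set, offset, filter and variance choices and leaving out each replicate.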

Additional observations from a re-analysis of the deposited data

How the results depend on the processing

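No paired analysis was possible because all samples belong to 1 group. Under the 17 alternatives SIM stayed above 0 and was called in 16, the exception being the fit without moderation (2.86 log2, adjusted p = 0.0509 by limma without moderation). That setting also lowered the genes above background to 2715 (20.3%). Family loci above fell to 2 (AT2G28870 and AT5G40460) and cell cycle genes above to the same 2. With bacterial controls these counts were 7604 (57%), 6 and 13, and AT2G28330 was called above (1.04 log2, limma adjusted p = 0.0385). SMR2 was called only with bacterial controls (1.04 log2), and its mean turned negative at the 95th percentile of the panel (-0.37), with the level raised by 1 log2 (-0.96) and with an offset of 16 (-0.027), uncalled each time. AT2G28330 turned negative under these last 3 settings too (-0.37, -0.96 and -0.020). CLE40 did at the 95th percentile (-0.33) and the raised level (-0.92), where ATMYC1 (-0.51) and AT1G62500 (-0.23) also did. AT1G10690 and CDC27a turned positive at the 75th percentile (0.86 and 0.49), with bacterial controls (0.96 and 0.58), pseudogenes (0.41 and 0.037) and the panel without AMS (0.91 and 0.54). Leaving out 1 replicate gave 2.54 to 3.04 for SIM, -0.12 to 0.29 for SMR2, -0.28 to 0.58 for AT2G28330, -0.64 to 0.34 for AT1G10690, -2.75 to 0.14 for AT2G37610, -0.81 to 0.071 for CDC27a and -0.54 to 0.80 for CLE40. Other counts of genes above stayed within 1.5 times of 6050. Raising the level by 1 log2 left 8 of the 11 cell cycle genes above, while the share over all genes fell from 45.3% to 34.5%. The moves under other background levels follow from the level itself, and the cause of the others was not tested. Median centring cannot move a gene relative to its own array's level.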
